A study of Homo sapiens with 6 samples.

Results

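The genes described here are 42 factors of cytoplasmic and nuclear mRNA decay other than the deadenylase CCR4-NOT itself, chosen by name from 4 branches: decapping and the LSM ring, poly(A) tail and microRNA factors, the RNA exosome, and nonsense-mediated decay (NMD). They were followed in A549, a human lung adenocarcinoma cell line, after knockdown of CNOT3, a subunit of CCR4-NOT. Stable A549 lines had been made by lentiviral transfer of a tetracycline-inducible short hairpin RNA: A549-T-shCNOT3-1 and A549-T-shCNOT3-2 carry different hairpins against CNOT3, and A549-T-shNTC carries a non-targeting hairpin. Each of the 3 lines was grown for 72 hours with doxycycline (DOX, 1 ug/ml), which switches the hairpin on, and without it, and 1 Affymetrix array was run per line and DOX state. All 6 arrays thus come from cells that hold a hairpin vector, the shNTC line shows what DOX and an unrelated hairpin do, and the labels do not say whether a line was a pool or a clone. The labels describe no repeat cultures, so the 2 hairpins serve as the replicates of knockdown, and every p-value reflects spread among 6 arrays, which may be technical. In the main limma model this spread holds the DOX change of shNTC and the difference between the hairpins, combined with the variance of other genes. A DOX response of the control line thus counts as error there. Of the 42 genes, 38 had a probe set that the platform annotation gives to that gene alone, and 37 were bright enough to test, out of 19775 genes with such a probe set and 12630 tested. The NMD endonuclease SMG6 was too dim, PABPC4 and SMG1 had only probe sets that also match other genes, and no probe set was found here for UPF3A and UPF3B.

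Most mRNAs are degraded after their poly(A) tail has been shortened by PAN2-PAN3 and CCR4-NOT. The LSM1 to LSM7 ring and PATL1 then bind the shortened 3' end, DDX6 and the EDC proteins help DCP1 and DCP2 to remove the 5' cap, and XRN1 digests the body from the 5' end, while the exosome digests from the 3' end and DCPS clears the cap left over. NMD, built on the helicase UPF1, sends transcripts with an early stop codon into the same decay routes. CCR4-NOT touches these branches directly, since it binds DDX6 and is recruited by microRNA complexes, and the comparison asks whether the mRNAs of the partner machinery differ when CNOT3 is knocked down.

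The knockdown was seen in the targeted gene. CNOT3 intensity was 81.9 with DOX and 227 without in shCNOT3-1, 46.9 and 228 in shCNOT3-2, and 166 and 178 in shNTC. This left 36.1% and 20.5% in the shCNOT3 lines and 93.4% in shNTC, and over both hairpins the log2 change averaged -1.86 ± 0.57 (SD, n = 2, limma adjusted p = 0.0677). A dimmer CNOT3 probe set gave -2.13 and -2.22, but also -1.43 in shNTC. All 8 markers of epithelial and A549 cells were above the brightness filter on every array, while PTPRC of leukocytes and CDH5 of endothelium were below it on every array. Of the other cell types' lists, 0 of 2 leukocyte, 1 of 2 endothelial (PECAM1, 107 to 277) and 1 of 4 fibroblast markers (COL1A1, 350 to 553) were above it throughout. The 3'/5' ratio of the ACTB probe sets, a measure of RNA quality, was 1.42 with and 1.33 without DOX in shCNOT3-1, 1.45 and 1.36 in shCNOT3-2, and 1.47 and 1.58 in shNTC, so it moved up with DOX in both knockdown lines and down in the control line. The GAPDH ratio was 1.03 with and 0.980 without DOX in shCNOT3-1, 1.05 and 1.09 in shCNOT3-2, and 0.966 and 0.980 in shNTC, and so differed in direction between the hairpins. The part of RNA quality in the results was not tested.

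The clearest difference among the 42 genes was a lower level of DCP2, the catalytic subunit of the decapping enzyme. Its intensity was 712 with and 1436 without DOX in shCNOT3-1, 621 and 1487 in shCNOT3-2, and 1518 and 1311 in shNTC. Both knockdown arrays lay below all 4 other arrays, with 49.6% and 41.8% of the DCP2 signal left in the shCNOT3 lines and 115.7% in shNTC. The mean log2 change was -1.13 ± 0.17 (SD, n = 2), with a limma standard error of 0.20, a 95% interval of -1.58 to -0.69, an unadjusted p of 2.45e-04 and an adjusted p of 0.0543, just outside the threshold of 0.05. In bulk RNA, a lower level in every cell and its loss from some of the cells cannot be told apart. Set against the DOX change of shNTC, the difference was -1.35 (adjusted p = 0.377). DCP2 was the only one of the 37 that was at least 1.5-fold lower in both shCNOT3 lines, as were 2.68% of all genes tested, and none was at least 1.5-fold higher in both, as were 3.25%.

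Other DCP2 probe sets did not all follow. A dim one had a log2 difference of -0.53 in shCNOT3-1, -1.34 in shCNOT3-2 and 0.82 in shNTC, the same order as the brightest. Another, of middle brightness, gave 0.35 and -0.08 in the shCNOT3 lines and -0.11 in shNTC. With the mean over all 4 DCP2 probe sets in place of the brightest, of which 3 were above the brightness filter, the change was -0.42 (limma adjusted p = 0.549). The plot of probe sets by gene shows this split.

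**Figure D1:**
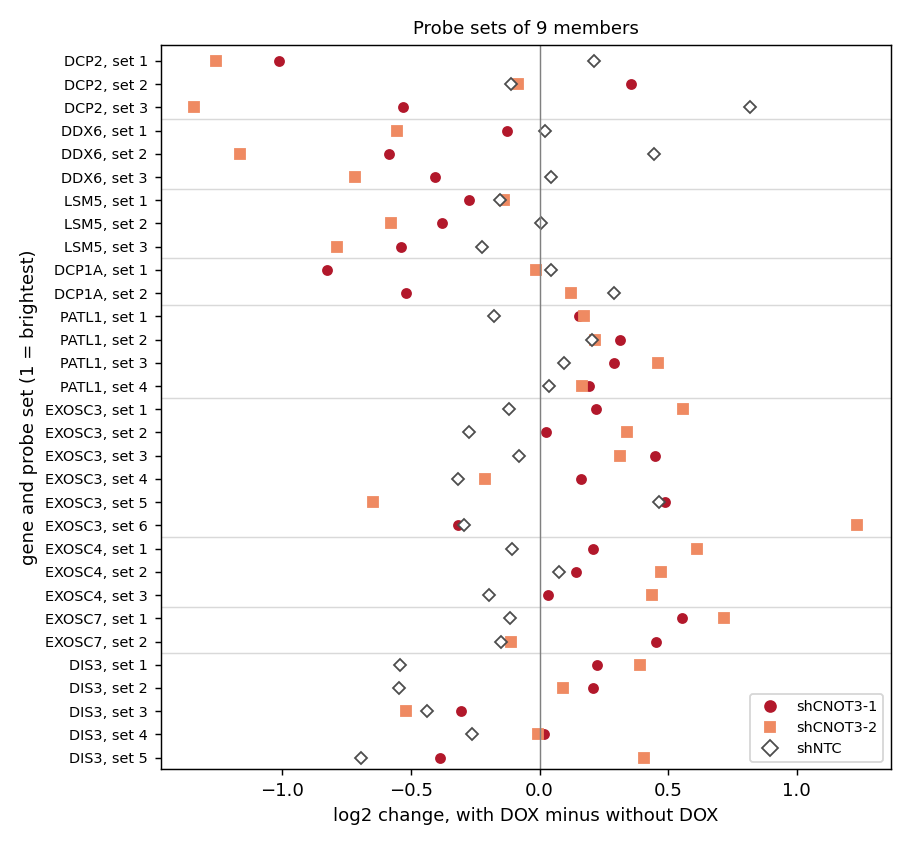
Log2 change with DOX minus without DOX of each probe set above the brightness filter, for 9 decay factors with several of them (1 is the brightest set of a gene). Circles and squares are the shCNOT3-1 and shCNOT3-2 lines and open diamonds the shNTC line, with 1 pair of arrays per point. DDX6 and LSM5 lie left of 0 in both shCNOT3 lines with all 3 of their probe sets, and PATL1 and EXOSC4 lie right of 0 with all of theirs. DCP1A, DCP2, EXOSC3, EXOSC7 and DIS3 have probe sets that disagree.

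The promoters of DCP2 and of its activator DCP1B, which lay on opposite sides of their no-DOX level, are shown to set the genes' control regions side by side, with that of the exosome subunit EXOSC7, the largest difference on the higher side. Each window runs from 250 bases before to 50 after the annotated start (RefSeq, GRCh38.p14), read 5' to 3' on the strand of the gene: DCP2 at chr5:112976548-112976847 on the plus strand, DCP1B at chr12:2004408-2004707 on the minus strand and EXOSC7 at chr3:44975994-44976293 on the plus strand. Capitals mark matches on either strand to CCAAT, the NF-Y box, in DCP2 and to the ETS element CCGGAAG in DCP1B.
DCP2: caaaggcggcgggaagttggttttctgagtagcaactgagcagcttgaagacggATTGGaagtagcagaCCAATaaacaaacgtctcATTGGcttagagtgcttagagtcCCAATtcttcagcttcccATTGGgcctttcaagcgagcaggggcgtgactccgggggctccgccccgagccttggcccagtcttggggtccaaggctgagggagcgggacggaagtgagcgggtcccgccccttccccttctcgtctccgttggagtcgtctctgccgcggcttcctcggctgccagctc
DCP1B: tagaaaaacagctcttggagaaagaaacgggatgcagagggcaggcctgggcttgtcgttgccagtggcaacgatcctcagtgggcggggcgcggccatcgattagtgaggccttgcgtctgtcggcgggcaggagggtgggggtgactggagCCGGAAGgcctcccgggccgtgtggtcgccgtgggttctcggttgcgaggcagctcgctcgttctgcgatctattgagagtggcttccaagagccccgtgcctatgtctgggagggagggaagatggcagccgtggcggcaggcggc
EXOSC7: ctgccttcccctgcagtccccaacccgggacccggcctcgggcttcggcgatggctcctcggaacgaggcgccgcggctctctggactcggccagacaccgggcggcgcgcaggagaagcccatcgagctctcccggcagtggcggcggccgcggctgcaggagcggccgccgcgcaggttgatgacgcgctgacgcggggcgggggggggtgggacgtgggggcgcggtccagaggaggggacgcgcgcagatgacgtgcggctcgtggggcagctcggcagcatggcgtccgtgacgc
The DCP2 window holds 5 CCAAT matches, a number reached by 110 of 27305 windows of all genes (0.403%) and by DCP2 alone among the 35 members with a window. The EXOSC7 window is 76.0% G and C and holds none of the 5 motifs searched on both strands, which were the CCAAT box, the ETS element CCGGAAG, the NRF1 element, the TATA box (TATAAA) and the E-box (CACGTG). Across the 35 windows the NRF1 element was found in 12 (34.3%), against 6.28% of all windows, the CCAAT box in 14 (40.0%, against 35.7%), the ETS element in 7 (20.0%, against 10.7%), the E-box in 4 (11.4%, against 7.43%) and the TATA box in 1 (2.86%, against 12.0%). All windows include those of genes too dim to test or without a probe set here, so the shares are no comparison with the genes tested. A match describes the letters and does not show that a factor binds there.

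Of the 37 genes tested, 0 passed an adjusted p of 0.05 in limma, a call made for 0.222% of all genes (28). At an unadjusted p of 0.05, 3 were higher in the knockdown (DCP1B, EXOSC4 and EXOSC7, 8.11%) and 1 was lower (DCP2, 2.70%), and the same rule called 7.45% of all genes higher and 7.08% lower. The counts of single calls were thus close to or under those of genes in general. In direction, 18 of the 37 (48.6%) were higher with DOX in both shCNOT3 lines, as were 33.2% of all genes, and 10 (27.0%) were lower in both, as were 26.9%. The remaining 9 had opposite signs in the hairpins. By size, 29 of the 37 stayed within 1.5-fold in all 3 lines, and none reached 1.5-fold in shNTC. The matching shares of all genes were not counted, so these counts do not set the members apart.

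The shNTC line helps to read these directions. Of the 18 genes that were higher in both shCNOT3 lines, 12 were lower with DOX in shNTC, which is 32.4% of the 37 genes and compares with 17.5% of all genes. Of the 10 that were lower in both, 4 were higher in shNTC (DCP1A, DCP2, DDX6 and UPF2), or 10.8%, against 13.5% of all genes. DCP1A counts there on a change of only -0.01 in shCNOT3-2. By level, both knockdown arrays lay above all 4 others for 10 members (27.0%, against 16% of all genes) and below them for 5 (13.5%, against 12.8%). The members' median DOX changes were 0.15 in shCNOT3-1, 0.03 in shCNOT3-2 and -0.11 in shNTC, beside 0.05, 0.02 and -0.01 over all genes tested.

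**Figure D2:**
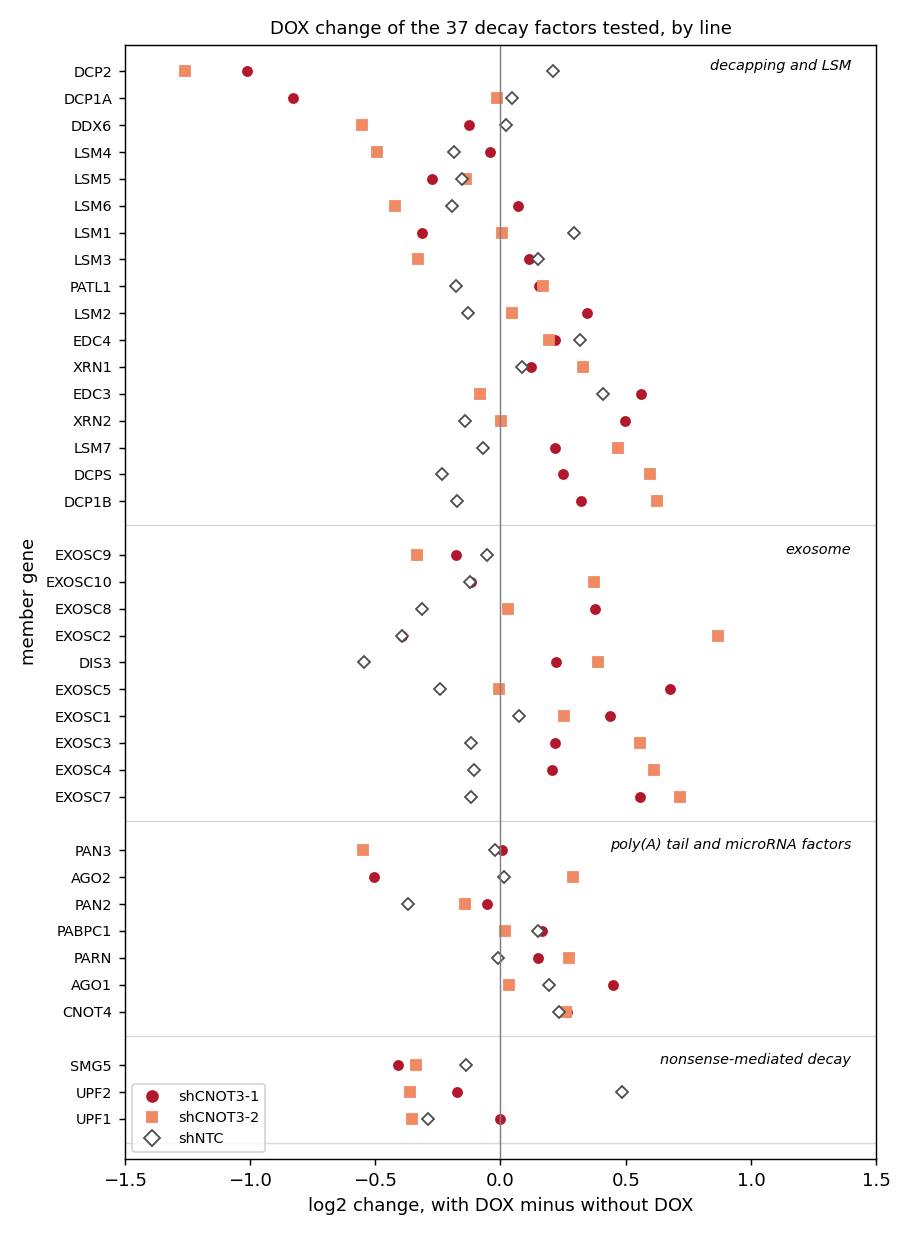
Log2 change with DOX minus without DOX in each line for the 37 decay factors tested, in the 4 branches and ordered by the mean of the shCNOT3 lines. Filled circles and squares are shCNOT3-1 and shCNOT3-2 and open diamonds are shNTC. DCP2 stands alone at the left with -1.01 and -1.26. Of the 10 exosome genes, 5 (50.0%, against 17.5% of all genes) lie right of 0 in both shCNOT3 lines with shNTC left of 0. The 3 NMD genes measured do not lie right of 0 in either shCNOT3 line (26.9% of all genes were lower in both).

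In the decapping and LSM branch (17 tested) 8 genes were higher in both shCNOT3 lines (47.1%, against 33.2% of all genes) and 5 lower (29.4%, against 26.9%). The median DOX changes were 0.12, 0.00 and, in shNTC, -0.07. DCP1B, a DCP1 paralog that activates DCP2, had an intensity of 1169 with and 935 without DOX in shCNOT3-1, 1201 and 780 in shCNOT3-2, and 626 and 705 in shNTC. Both knockdown arrays were the highest of the 6, with log2 changes of 0.32 and 0.62 against -0.17 in shNTC (mean 0.47 ± 0.20, SE; limma adjusted p = 0.330), although without DOX both shCNOT3 lines already lay above both shNTC arrays. DCPS, the scavenger that hydrolyses the cap left after 3' to 5' decay, had 1638 with and 1378 without DOX in shCNOT3-1, 1801 and 1190 in shCNOT3-2, and 1310 and 1542 in shNTC (mean change 0.42, adjusted p = 0.370). Its knockdown arrays were also the highest, by a small margin over shNTC without DOX. The catalytic subunit and its activator therefore lay on opposite sides, while DCP1A, the other DCP1 paralog, differed by hairpin: its log2 change was -0.83 in shCNOT3-1, -0.01 in shCNOT3-2 and 0.04 in shNTC. A second DCP1A probe set gave -0.52, 0.12 and 0.29 in the same order.

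Among the activators of decapping, DDX6, the RNA helicase that CCR4-NOT binds, had an intensity of 2715 with and 2966 without DOX in shCNOT3-1, 2188 and 3212 in shCNOT3-2, and 3675 and 3620 in shNTC. Both knockdown arrays were below all 4 others, mostly through shCNOT3-2, and all 3 DDX6 probe sets were lower with DOX in both lines (log2 changes from -0.13 to -1.17). The mean of the brightest was -0.34 ± 0.18 (SE; limma adjusted p = 0.432). PATL1, which links the LSM ring to decapping, was slightly higher with all 4 of its probe sets above the filter (0.15 and 0.17 for the brightest, adjusted p = 0.741). EDC4, a scaffold of the decapping complex, was higher with DOX in all 3 lines (0.22, 0.19 and, in shNTC, 0.32), and EDC3 had opposite signs in the hairpins, which its probe sets gave the other way round (0.56 and -0.08 for the brightest, -0.29 and 0.80 for the other).

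The LSM genes encode the ring that caps the 3' end of deadenylated mRNA, and LSM2 to LSM7 also serve the nuclear U6 snRNA. LSM5, the brightest gene of the branch, had an intensity of 12605 with and 15235 without DOX in shCNOT3-1, 13568 and 14941 in shCNOT3-2, and 10980 and 12223 in shNTC. It was lower with DOX in every line by this probe set (-0.27, -0.14 and -0.15). In its other probe sets the shCNOT3 lines were lower by more, with -0.38 and -0.58 against 0.01 in shNTC, and -0.54 and -0.79 against -0.22. LSM4 was also lower in both shCNOT3 lines (-0.04 and -0.49, shNTC -0.18), LSM2 (0.35 and 0.05) and LSM7 (0.22 and 0.47) were higher, and LSM1, LSM3 and LSM6 had opposite signs, so the subunits of this ring showed no common direction. The 5' to 3' exonuclease XRN1 was slightly higher in both shCNOT3 lines by its brightest probe set (0.12 and 0.33, shNTC 0.09, limma adjusted p = 0.652). Its next probe set gave 0.32 and -0.07 with -0.74 in shNTC, and a dimmer one 0.43 and 1.04 with 0.96 in shNTC. Nuclear XRN2 was higher in shCNOT3-1 (0.50) and level in shCNOT3-2 (3938 with and 3928 without DOX), with -0.14 in shNTC (adjusted p = 0.573).

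**Figure D3:**
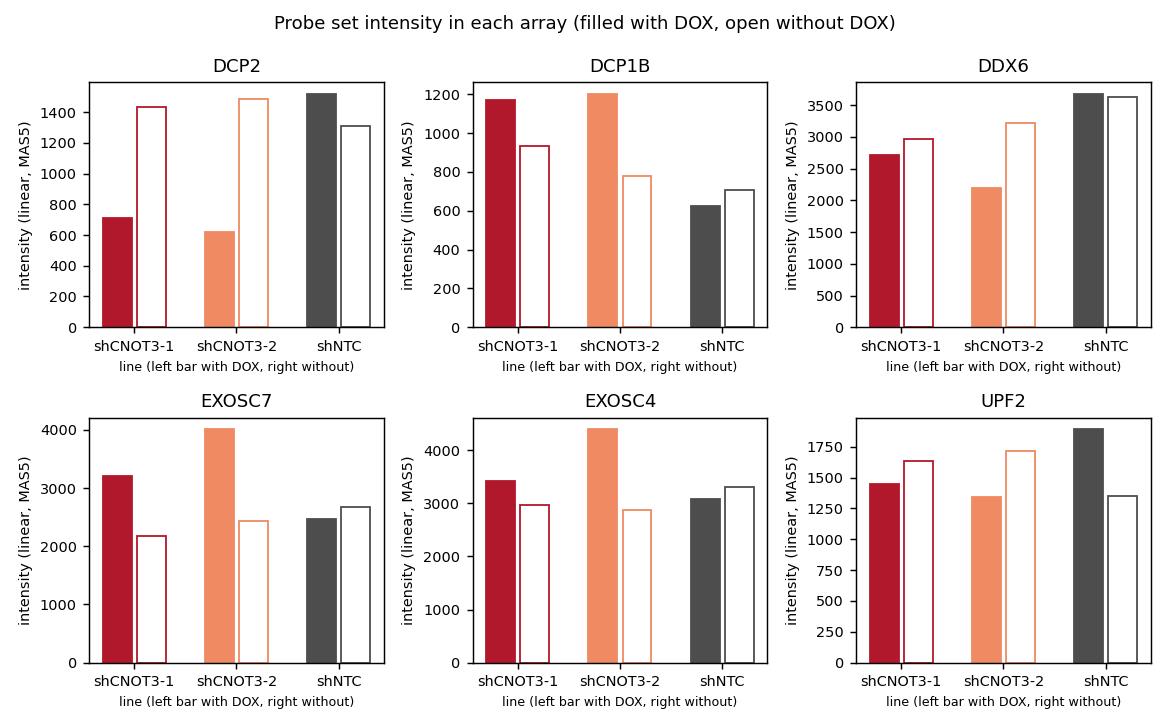
Probe set intensity (linear, MAS5, axes from 0) of 6 decay factors on each array. Filled bars are with DOX and open bars without DOX, 1 array each, for shCNOT3-1, shCNOT3-2 and shNTC from left to right. The filled DCP2 bars of the shCNOT3 lines, 712 and 621, are the lowest of its 6, and the filled EXOSC7 bars, 3206 and 4009, the highest of its 6.

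In the exosome branch, where 9 of the 10 members were lower with DOX in shNTC (90.0%, against 51.2% of all genes), 6 of 10 were higher in both shCNOT3 lines (60.0%, against 33.2% of all genes) and 1, EXOSC9, was lower (10.0%, against 26.9%). The 6 of 10 depended on the probe set chosen, with 4 of 10 higher in both lines by the mean of all probe sets of a gene, those under the brightness filter included. With unmarked probe sets preferred to those marked for cross-hybridisation, 2 of 8 were higher, EXOSC4 and EXOSC8. EXOSC8 was still read by a marked probe set there, since it has no other. EXOSC1, which was among the 6, and EXOSC10 dropped out of that count, since their unmarked probe sets were under the brightness filter. The exosome has a ring and a cap of catalytically inactive subunits, with the nucleases DIS3 and EXOSC10 attached. The median DOX changes were 0.22 in shCNOT3-1, 0.38 in shCNOT3-2 and -0.12 in shNTC. For 5 members (50.0%, against 16% of all genes) both knockdown arrays lay above all 4 others, among them EXOSC7 and DIS3, for which a probe set without that mark gave another direction in at least 1 shCNOT3 line. The ACTB 3'/5' ratio moved in the direction of the branch's median in each line, up with DOX in both shCNOT3 lines and down in shNTC. The GAPDH ratio did not, being lower with DOX in shCNOT3-2, and the part of RNA quality was not tested.

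EXOSC7, a ring subunit, had the largest difference of the branch. Its intensity was 3206 with and 2181 without DOX in shCNOT3-1, 4009 and 2441 in shCNOT3-2, and 2465 and 2673 in shNTC. The knockdown arrays did not overlap the others, with a mean log2 change of 0.64 ± 0.11 (SD, n = 2; SE 0.17, limma adjusted p = 0.160). Beyond the shNTC change the difference was 0.75 (unadjusted p = 0.0450, adjusted p = 0.581). A dimmer probe set gave 0.45 in shCNOT3-1 but -0.11 in shCNOT3-2.

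EXOSC4, another ring subunit, had 3430 with and 2973 without DOX in shCNOT3-1, 4393 and 2872 in shCNOT3-2, and 3077 and 3313 in shNTC. All 3 of its probe sets were higher in both shCNOT3 lines, more so in shCNOT3-2, and the mean for the brightest was 0.41 ± 0.18 (SE; limma adjusted p = 0.337). EXOSC3, a cap subunit that binds RNA, had 3142 with and 2700 without DOX in shCNOT3-1, 3559 and 2420 in shCNOT3-2, and 2917 and 3169 in shNTC, so that the shCNOT3-1 array with DOX lay within the range of the others. Its mean change was 0.39 (adjusted p = 0.360), but its brightest probe set is of a kind that can cross-hybridise, and the brightest without that mark gave -0.08. EXOSC8, a ring subunit and the brightest of the branch, had 4061 with and 3125 without DOX in shCNOT3-1, 4104 and 4018 in shCNOT3-2, and 2617 and 3252 in shNTC. Its shCNOT3-2 arrays were almost level, so its mean of 0.20 (adjusted p = 0.664) came from the other hairpin.

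DIS3, the main catalytic subunit, had 1789 with and 1533 without DOX in shCNOT3-1, 1834 and 1398 in shCNOT3-2, and 1115 and 1626 in shNTC. Its knockdown arrays were the highest, and the lowest was shNTC with DOX, so its difference beyond shNTC (0.85, limma unadjusted p = 0.0402, adjusted p = 0.571) was larger than its mean in the shCNOT3 lines (0.31, adjusted p = 0.571). The brightest DIS3 probe set without the mark for cross-hybridisation gave -0.30 and -0.52, against -0.44 in shNTC. Over all 37 genes, 2 were higher beyond shNTC at an unadjusted p of 0.05 (EXOSC7 and DIS3, 5.41%, against 4.48% of all genes) and 1 was lower (DCP2, 2.70%, against 3.92%). By adjusted p the change beyond shNTC was called for 0% of all genes and for no member. EXOSC1 was higher in both lines (0.44 and 0.25), EXOSC9 lower (-0.18 and -0.33), and EXOSC2, EXOSC5 and the nuclear nuclease EXOSC10 had opposite signs. The split was widest for EXOSC2, with -0.39 in shCNOT3-1 and 0.87 in shCNOT3-2 by a probe set marked for cross-hybridisation. The brightest EXOSC2 probe set without that mark was lower in both lines (-0.40 and -0.16, shNTC 0.02).

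**Figure D4:**
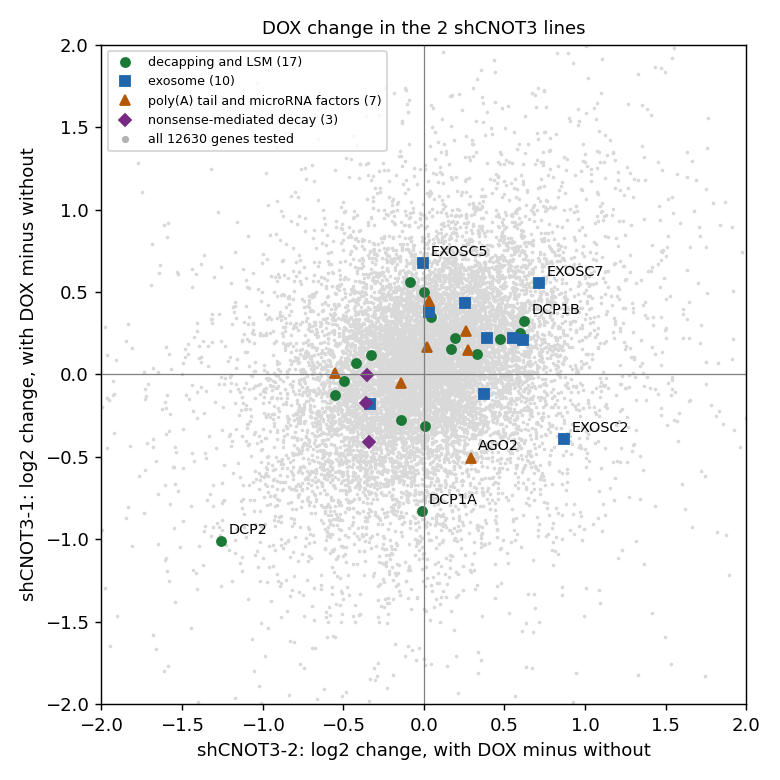
Log2 change with DOX minus without DOX in shCNOT3-1 (vertical) against shCNOT3-2 (horizontal). Coloured symbols are the 37 decay factors by branch and grey points all 12630 genes tested, of which 177 lie beyond the axis limits. DCP2 is at -1.01 and -1.26 in the lower left, EXOSC7 at 0.56 and 0.72 in the upper right, and EXOSC2, AGO2 and DCP1A fall where the hairpins differ.

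Poly(A) tail and microRNA factors (7 tested) had a median DOX change of 0.15 in shCNOT3-1, 0.04 in shCNOT3-2 and 0.02 in shNTC, and for none of them did the knockdown arrays lie apart from the other 4. PAN3, the RNA-binding partner of the PAN2 deadenylase, had 1372 with and 1366 without DOX in shCNOT3-1, 1058 and 1548 in shCNOT3-2, and 1572 and 1597 in shNTC. Only the shCNOT3-2 pair differed by much (limma adjusted p = 0.589). CNOT4, a ubiquitin ligase that binds CCR4-NOT, had 685 with and 570 without DOX in shCNOT3-1, 737 and 615 in shCNOT3-2, and 810 and 688 in shNTC. The difference was almost the same in the 3 lines (0.27, 0.26 and 0.24), and the part beyond shNTC was 0.03 (adjusted p = 0.988).

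AGO1, an Argonaute protein of microRNA complexes, had 664 with and 487 without DOX in shCNOT3-1, 606 and 592 in shCNOT3-2, and 652 and 570 in shNTC (mean 0.24, limma adjusted p = 0.658). All 3 pairs were higher with DOX by this probe set, and the arrays overlapped. The next brightest AGO1 probe set was lower with DOX in all 3 pairs (-0.08, -0.32 and -0.04 in shNTC), which turns the mean to -0.20 when probe sets marked for cross-hybridisation are left out. PABPC1, the cytoplasmic poly(A)-binding protein and the brightest of the branch, had 28581 with and 25471 without DOX in shCNOT3-1, 29019 and 28646 in shCNOT3-2, and 31832 and 28712 in shNTC. Its mean change of 0.09 ± 0.11 (SE) had a 95% interval of -0.16 to 0.34. PARN, a poly(A)-specific ribonuclease, was higher in both shCNOT3 lines (0.15 and 0.27, adjusted p = 0.598), PAN2 was lower in all 3 lines (-0.05, -0.14 and -0.37 in shNTC), and AGO2 had opposite signs (-0.50 and 0.29).

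Only 3 of the 7 NMD genes were tested, and all 3 had lower values in both shCNOT3 lines (100%, against 26.9% of all genes), with small differences. UPF1 and SMG5 were also lower with DOX in shNTC (66.7%, against 51.2% of all genes). The median DOX changes were -0.17 in shCNOT3-1, -0.35 in shCNOT3-2 and -0.14 in shNTC. SMG5, which helps to dephosphorylate UPF1, had 305 with and 406 without DOX in shCNOT3-1, 295 and 373 in shCNOT3-2, and 399 and 440 in shNTC. Both knockdown arrays were the lowest (mean -0.38 ± 0.23, SE; limma adjusted p = 0.490), and a second probe set gave -0.33 and -0.21. UPF2, the adaptor between UPF1 and the exon junction complex and the brightest of the 3, had 1451 with and 1635 without DOX in shCNOT3-1, 1340 and 1720 in shCNOT3-2, and 1891 and 1351 in shNTC. Here shNTC went the other way by 0.49, and the arrays overlapped (adjusted p = 0.620). UPF1 had 508 with and 509 without DOX in shCNOT3-1, 402 and 514 in shCNOT3-2, and 474 and 580 in shNTC, so the control pair differed about as much as the second hairpin's, and a dimmer UPF1 probe set was higher in all 3 lines (0.05, 0.37 and 0.35 in shNTC).

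Companion genes of these routes were taken from 6 lists, and none of their members passed the adjusted threshold in limma. Their counts at an unadjusted p of 0.05 stand beside 7.45% of all genes higher and 7.08% lower. Of 12 other decapping and P-body factors tested, 1 was higher (8.33%) and 0 were lower. It was PNRC1, a nuclear cofactor of DCP1 and DCP2, with 3560 with and 944 without DOX in shCNOT3-1, 3376 and 1571 in shCNOT3-2, and 1583 and 2211 in shNTC. Its knockdown arrays were the highest by a wide margin (log2 changes 1.91 and 1.10, shNTC -0.48), the mean was 1.51 ± 0.25 (SE), and its adjusted p of 0.0500002 was just above the threshold. It was measured by 1 probe set, and it was the companion gene with the largest difference in any of the lists. Next among these 12 was TENT4B, a terminal nucleotidyltransferase, at 0.46 (adjusted p = 0.358), with 0.50 in shNTC and a mean of -0.05 by its second probe set.

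Of 14 other exosome components and cofactors tested, 3 were higher (ZCCHC7, RBM7 and PELO, 21.4%) and 1 lower (7.14%) at an unadjusted p of 0.05. The lower one, the ring subunit EXOSC6, had 450 with and 1117 without DOX in shCNOT3-1, 968 and 1383 in shCNOT3-2, and 728 and 1013 in shNTC, with a mean of -0.91 (limma adjusted p = 0.166). Its other probe sets gave -0.23 and -0.13 with 0.06 in shNTC, and -1.56 and -0.70 with -1.40 in shNTC. EXOSC6 lay opposite to the ring subunits EXOSC4, EXOSC7 and EXOSC8, although by its brightest probe set shNTC was lower too. It lay on the same side as EXOSC9 (-0.18 and -0.33), and EXOSC5 differed by hairpin (0.68 and -0.01). RBM7, of the nuclear NEXT adaptor, was at 0.60 (adjusted p = 0.242), but its second probe set gave -0.69 and -0.81. The median DOX changes of this list were -0.02 and 0.24 in the shCNOT3 lines and -0.08 in shNTC.

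Of 12 further NMD and exon junction factors tested, 1 was higher (RBM8A, 0.42, limma adjusted p = 0.282) and 1 lower (MAGOHB, -0.47, adjusted p = 0.312) at an unadjusted p of 0.05, or 8.33% each. RBM8A and MAGOHB belong to the same exon junction core, and the other 5 RBM8A probe sets above the filter had mean changes from -0.10 to -0.55. Among 15 genes with transcripts known as NMD substrates, 1 was higher and 1 lower by the same rule (6.67% each). Their median changes were -0.06 and 0.11 in the shCNOT3 lines and -0.09 in shNTC. Which transcripts of a gene its probe set reads was not examined, so these are not levels of the NMD substrates alone. The higher one, the growth arrest gene GADD45A, had 2062 with and 1494 without DOX in shCNOT3-1, 3199 and 1552 in shCNOT3-2, and 1493 and 1586 in shNTC (mean 0.75, adjusted p = 0.155). The lower one, the splicing factor SRSF6, had 2296 with and 4671 without DOX in shCNOT3-1, 2259 and 4098 in shCNOT3-2, and 4420 and 4863 in shNTC. Its mean was -0.94 ± 0.17 (SE, adjusted p = 0.0580), and a second probe set gave -0.77 and -0.44.

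Of 12 RNA-binding partners and effectors of silencing tested, 0 were higher and 2 lower (16.7%) at an unadjusted p of 0.05, PUM2 (-0.74, limma adjusted p = 0.210) and ZFP36L2 (-0.51, adjusted p = 0.277). Both proteins bind 3' untranslated regions and recruit CCR4-NOT. PUM2 had 1526 with and 3602 without DOX in shCNOT3-1, but 3075 and 3660 in shCNOT3-2, and 3545 and 4167 in shNTC, so the difference rested on the first hairpin. NANOS1 had the largest mean of the list (-0.84, adjusted p = 0.349), with -0.27 and -1.41 in the shCNOT3 lines and 0.69 in shNTC. Of the 9 other CCR4-NOT subunits tested, 0 were higher and 0 lower at an unadjusted p of 0.05, with CNOT6L (0.47, adjusted p = 0.375) and CNOT2 (0.14, adjusted p = 0.760) the largest. The other CNOT6L probe sets above the filter had means of -0.27 and -0.23.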

How the data were processed

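Gene expression was measured on 6 Affymetrix arrays of A549 cells, 1 per line and DOX state, from 500 ng of total RNA per the labels. Per the submitters' processing notes the authors used MAS5 (version and settings not given in the sources used here), and each deposited value is a linear intensity of 1 probe set. All arrays had a mean of 500.1 after trimming 2% at each end, so the deposited intensity values were already scaled, and changes are relative to the mean of each array. Precision is limited by the number of arrays. No genome build was named, so coordinates are given only for RefSeq promoter windows.

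Tests ran on log2(intensity + 1), which understates the change of dim genes. A gene was represented by its brightest probe set listed with that gene alone, with symbols updated through Entrez identifiers. Of 54675 probe sets, 41091 were listed with 1 gene, 1801 with several and 11777 were not listed. Genes with a mean log2 under 5.96 (an intensity of 61.4, the median of all probe sets) were left out. Two-sided limma tests (limma 3.58.1, R 4.3.3, intensity trend in the prior) were adjusted by Benjamini-Hochberg over all genes tested. The model blocked on the line, and its knockdown term marked the shCNOT3 arrays with DOX. A second model added a DOX term and tested the change beyond shNTC. Arrays are paired by the labels, which give every line both DOX states. Deviations from the group means of same-numbered shCNOT3 arrays correlated at 0.06 across genes. The procedure was tested on simulated data.

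The members and lists were chosen with earlier results of these data known. Given in every array are members with an unadjusted p under 0.05, the 3 largest mean changes and the brightest gene of each branch, and CNOT3, with the 2 largest mean changes of each other list named. DDX6, DIS3 and the companion genes given by array were chosen for that after their values were seen. Alternatives covered scaling, added constant, filter, choice of probe set, variance prior, block and leaving out each line. Plots were made in Python 3.11.15 (matplotlib 3.10.9).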

Additional observations from a re-analysis of the deposited data

How the results depend on the processing

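The count of all genes called for knockdown (28) was 3 with no filter on dim genes, 51 with a stricter filter and 6 with the mean of all probe sets of a gene. It was 56 with unmarked probe sets preferred to those marked for cross-hybridisation, and 0 without an intensity trend in the prior. Genes that had only marked probe sets kept a marked one when unmarked ones were preferred. The count was 191 with no replicate block. With each line left out in turn it was 39 to 62. Of the members, 1 (DCP2) was called with the stricter filter (-1.13, adjusted p = 0.0443) and with no replicate block (-1.11, adjusted p = 0.0113), and 0 otherwise. The adjusted p of DCP2 ranged from 0.0113 to 0.549, and the lowest of any other member was 0.0906. The change beyond shNTC was called for 7 genes after median centring and 0 in the main model. It has no value without shNTC and no residual degrees of freedom without a shCNOT3 line, so these were not run. Exosome genes higher in both shCNOT3 lines numbered 2 of 8 with unmarked probe sets preferred, against 6 of 10.

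Of 438 member values under the alternatives, 416 kept their direction and side of the threshold, 2 passed it and 20 changed sign, and 21 of 37 members never changed sign. With no replicate block, the sign changed for PAN2 (0.086), EDC3 (-0.042) and LSM6 (0.015). With unmarked probe sets preferred it changed for AGO1 (-0.20), EXOSC2 (-0.28), EXOSC3 (-0.081) and DIS3 (-0.41). With the mean of probe sets it changed for UPF1 (0.015), EXOSC1 (-0.16), EXOSC2 (-0.12) and CNOT4 (-0.014). This mean takes in probe sets under the brightness filter, which EXOSC1, EXOSC2 and CNOT4 have. With a shCNOT3 line left out, values ranged across 0 for PAN3 (-0.55 to 0.0060), EDC3 (-0.083 to 0.56), LSM1 (-0.31 to 0.0055), LSM3 (-0.33 to 0.11), LSM6 (-0.42 to 0.069), AGO2 (-0.50 to 0.29), EXOSC2 (-0.39 to 0.87), EXOSC5 (-0.0054 to 0.68) and EXOSC10 (-0.12 to 0.37). The small number of arrays limits every value, and members under the brightness filter were not tested.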

Other observations

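Probe sets that match several genes were left out of the comparison and are given here as values. One for PABPC4, a poly(A)-binding protein, read 4516 with and 3680 without DOX in shCNOT3-1, 1975 and 3370 in shCNOT3-2, and 4201 and 4029 in shNTC, so the hairpins lay on opposite sides (0.30 and -0.77). The brightest for SMG1, the kinase that phosphorylates UPF1, read 1989 with and 2191 without DOX in shCNOT3-1, 2613 and 2296 in shCNOT3-2, and 2439 and 2501 in shNTC. All 3 shared probe sets of AGO2 were lower in both shCNOT3 lines (-0.70 and -0.07, -0.49 and -0.37, -0.57 and -0.20), with -0.33, 0.26 and -0.19 in shNTC, while the probe set of AGO2 alone had opposite signs in the hairpins.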
